A study of Arabidopsis thaliana with 6 samples.

Results

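The SWEET genes of Arabidopsis thaliana, which code for sugar transporters, were followed in suspension cells in which the vessel regulator VND1 was switched on. Members were chosen by symbols that begin like those of the sugar transporter families SWEET, SUC, STP and PMT or the aquaporin families PIP, TIP, NIP and SIP. Of 81 genes with such symbols in the gene table, 14 had a probe paired with them, out of 16550 genes with a probe of their own. All 14 are SWEET genes. Matching by symbol alone may take in other proteins, such as phosphatidylinositol phosphate kinases named PIP5K. The counts that follow are of symbols and are not family sizes. No probe was paired with the 7 SUC, 9 STP and 4 PMT symbols or with the 19 PIP, 8 TIP, 10 NIP and 9 SIP symbols. Aquaporins and proton-coupled sugar carriers of those families are therefore not analysed here, and the members are called SWEET genes throughout. Of the 15 genes with a SWEET symbol, SWEET12 alone had no paired probe.

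The cells carried an estrogen-inducible VND1-GFP construct and grew as a shaken suspension at 23 °C in the dark. Induced cells received 5 µM estrogen for 24 h (3 arrays), and uninduced cells were kept for the same 24 h without estrogen (3 arrays). Uninduced cells carry the construct too, and cells given estrogen but lacking it were not analysed here, so responses to VND1 and to estrogen cannot be told apart. Whether the 3 samples of each group came from separate cultures is not stated in the labels, so the p-values below reflect the spread among these samples, and that spread may be technical.

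SWEET proteins are membrane uniporters that let sugars move along their concentration gradient, in contrast to carriers that couple sugar to protons. Plant SWEETs fall into 4 clades. Members of clades I and II mainly move hexoses, members of clade III mainly move sucrose and serve phloem loading, nectar secretion and seed filling, and members of clade IV sit in the membrane of the vacuole and move fructose and other sugars. Vessel elements, the water-conducting cells that VND transcription factors specify, lay down a thick cellulose and xylan wall, which is built from sugars, and then lose their contents.

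By the array numbers in their titles, induced replicate 1 and uninduced replicate 1 form a run of 2 arrays, and the other arrays form a run of 4. The median of all 38408 probes was 6.15 and 6.08 in the run of 2, against 5.41 to 5.55 in the run of 4, on the log2 scale of the deposited values. The SWEET genes carried this difference. All 14 were lower in the run of 4, by 0.30 to 1.78 on the log2 scale, where 87.7% of all probes were lower. Of the 14, 10 were lower and 0 higher by the test for run (limma with group and run, Benjamini-Hochberg adjusted p under 0.05), where 36.8% of all probes were lower and 0.599% higher. Each SWEET gene's change is therefore also given within the runs, and whether it passed with the run as a block. Of the 11 names listed as xylem vessel markers 2 were measured, and both rose. The xylan synthesis gene GUT2 changed by 2.78 ± 0.16 (SE) and the xylan acetylation gene TBL33 by 5.04 ± 0.26 on the log2 scale (limma, adjusted p = 0.00292 and 0.00199). Among other cell types, the phloem gene OPS, the procambium genes PHV and LHW and the photosynthesis gene RCA lay between -0.14 and 0.20 and did not pass. RCA stood between percentiles 31.7 and 37.6 of each array. The part that a changing share of vessel-like cells has in the values below was not tested.

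Among the 14 SWEET genes the largest measured change after induction was that of SWEET16, which was higher on every induced array, by 2.71-fold on average. The other 13 SWEET genes changed by -0.21 to 0.42 on the log2 scale, and none of them passed the test in the comparison of all arrays or with the run as a block. In the comparison without a block, 0 of the 14 genes were higher and 0 were lower at an adjusted p under 0.05 (limma), where 0.534% of all probes were higher and 0% lower. At an unadjusted p under 0.05, limma gave 1 SWEET gene, SWEET16, where 3% of all probes were higher and 2.74% lower. In the fit that treats the run as a block 1 gene, again SWEET16, was higher and 0 were lower, where 0.992% of all probes were higher and 0.0338% lower. At an unadjusted p under 0.05 that fit gave 2 SWEET genes, SWEET16 and SWEET17, both higher, where 7.11% of all probes were higher and 8.49% lower. The median change of the 14 genes was 0.16 on the log2 scale (0.24 in the run of 2, 0.077 in the run of 4), against -0.024 over all probes. In all, 10 genes had a change above 0 and 4 below 0, where 45.8% of all probes were above 0. The sign was the same in both runs for 8 of the 10 and for all 4, and 27.7% of all probes were above 0 in both runs and 32.5% below 0 in both.

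**Figure D1:**
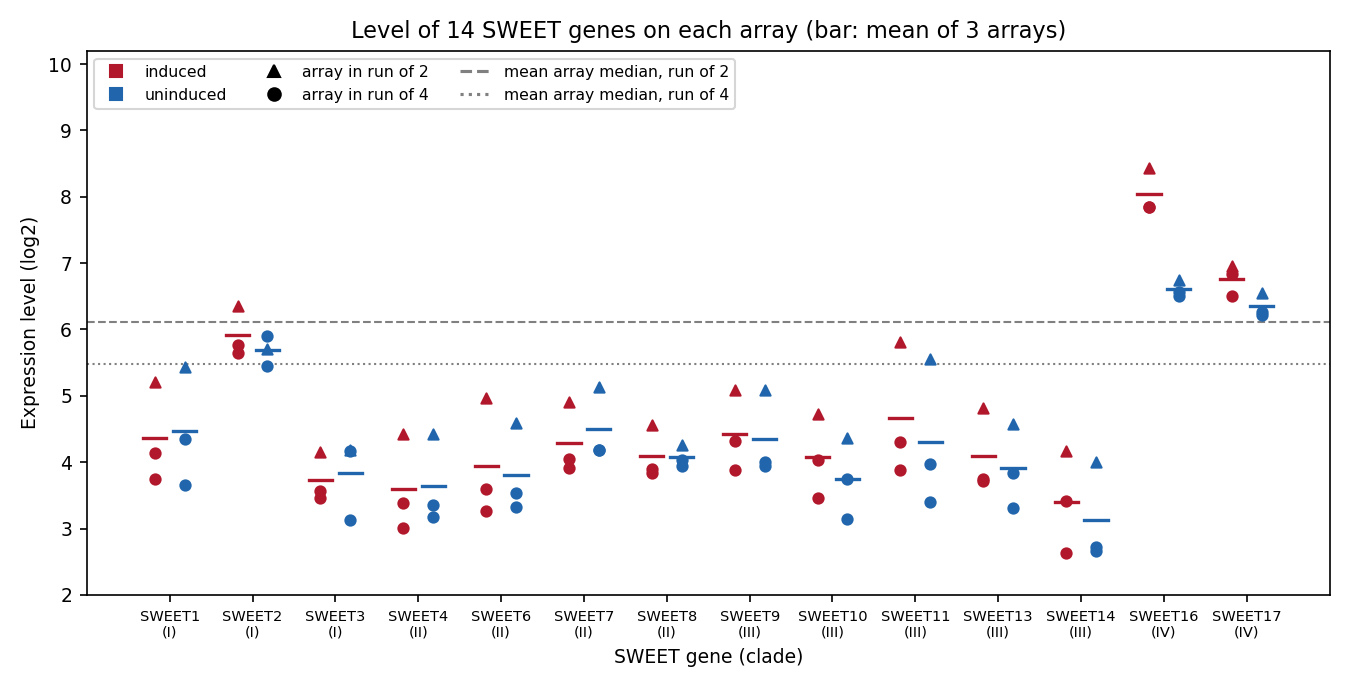
Level of each of the 14 SWEET genes (log2 scale, vertical axis) on the 3 induced arrays (red, left) and the 3 uninduced arrays (blue, right). Triangles are arrays of the run of 2, circles arrays of the run of 4, short bars group means over 3 arrays, and grey lines the mean array median of each run. The induced arrays of SWEET16 lie between 7.84 and 8.43, all above its uninduced arrays at 6.51 to 6.74, and for the other genes the groups overlap.

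The clade IV genes SWEET16 and SWEET17 code for transporters of the vacuolar membrane. SWEET16 (AT3G16690) had levels of 8.43, 7.84 and 7.85 on the induced arrays, against 6.74, 6.56 and 6.51 on the uninduced arrays. The groups did not overlap. Among the 14 genes this held for SWEET16 alone (1 higher, 0 lower), where 5.7% of all probes were fully apart and higher and 7.81% fully apart and lower. The mean level was 8.04 ± 0.33 in induced cells and 6.60 ± 0.12 in uninduced cells (SD, n = 3 each).

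The change of SWEET16 was 1.44 ± 0.21 on the log2 scale (SE), with a 95% interval of 0.93 to 1.95. Its adjusted p was 0.0826 in the comparison of all arrays (limma, unadjusted p = 0.000546). It was 0.0124 in the block fit, with a standard error of 0.11. Within the runs the change was 1.69 (run of 2, 1 array against 1) and 1.31 (run of 4, 2 arrays against 2). The difference between these changes, run of 4 minus run of 2, was -0.38. With 1 array per group in the run of 2, whether the changes differ between the runs cannot be settled here. Only 246 of the 38408 probes, or 0.640%, had a larger rise over all arrays than SWEET16. Whether more cells carried the transcript or each cell held more of it cannot be told apart in RNA from whole cultures.

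SWEET17 (AT4G15920), a fructose transporter of the vacuole, had levels of 6.96, 6.51 and 6.83 on the induced arrays, against 6.55, 6.27 and 6.22 on the uninduced arrays. The groups overlapped by 0.041, because uninduced replicate 1 stood above induced replicate 2. These arrays belong to different runs, and within each run the induced arrays were the higher ones. The change was 0.42 ± 0.18 on the log2 scale (SE), a 1.34-fold difference, with an interval of -0.028 to 0.87. It was 0.42 in the run of 2 and 0.42 in the run of 4. The adjusted p was 0.896 (limma). Adding the run as a block brought it to 0.224, with an interval of 0.12 to 0.72. SWEET17 therefore did not pass in either fit. The change of SWEET16 exceeded that of SWEET17 by 1.02 on the log2 scale. An exact two-sided permutation test of the within-array difference between the 2 genes gave p = 0.1, the smallest that 20 arrangements of the arrays allow. This test was not among those planned and did not keep the runs apart. Because no lower p was possible, it cannot settle whether the 2 changes differ.

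**Figure D2:**
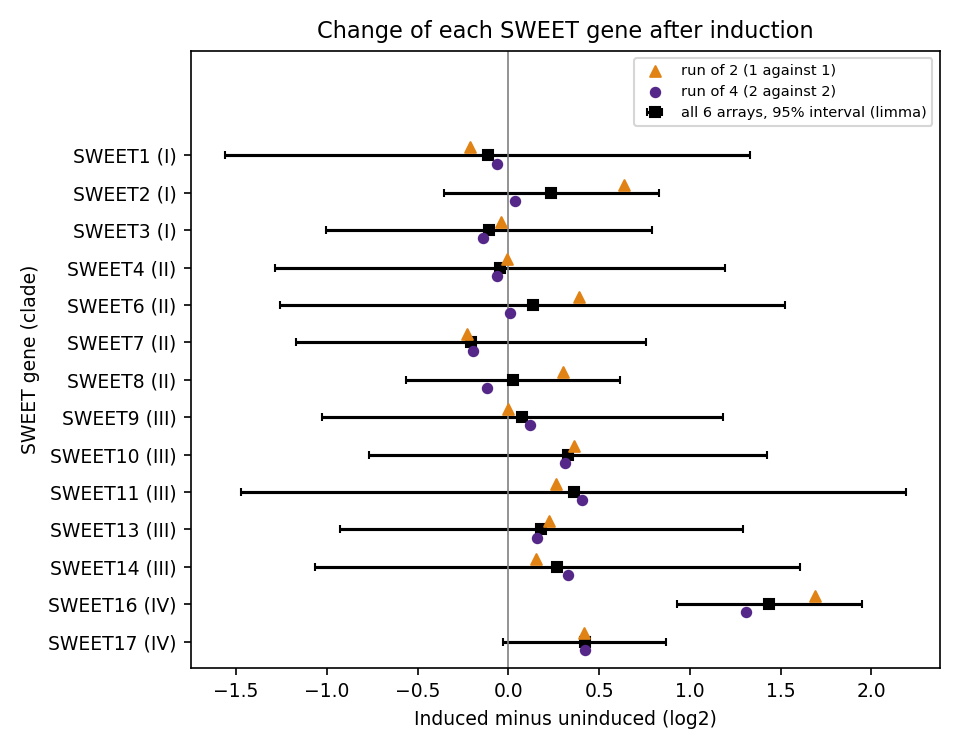
Change of each SWEET gene, induced minus uninduced, on the log2 scale (horizontal axis). Black squares use all 6 arrays with the 95% interval of the limma fit without a block, orange triangles the run of 2 and purple circles the run of 4. The interval of SWEET16, 0.93 to 1.95, lies wholly above 0, and those of the other 13 genes include 0.

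Clade III holds the family's sucrose transporters. The 5 of them among the 14 genes had changes of 0.078 to 0.36 on the log2 scale over all arrays, and none passed the test. SWEET11 (AT3G48740), which with SWEET12 releases sucrose for phloem loading in leaves, had levels of 5.81, 3.89 and 4.30 on the induced arrays. Its uninduced arrays gave 5.55, 3.40 and 3.98. The spread followed the runs, and the arrays of the run of 2 stood 1.78 above those of the run of 4. The change was 0.36 ± 0.74 (SE), with 0.26 in the run of 2 and 0.41 in the run of 4. With the run as a block the standard error was 0.20 and the adjusted p 0.469 (limma).

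SWEET10 (AT5G50790), a sucrose transporter, had levels of 4.73, 4.04 and 3.46 on the induced arrays, against 4.36, 3.74 and 3.14 on the uninduced arrays. Its groups overlapped, with a change of 0.33 ± 0.44 (SE), 0.36 in the run of 2 and 0.31 in the run of 4. SWEET14 (AT4G25010), which together with SWEET13 serves anthers, had levels of 4.17, 3.41 and 2.63 on the induced arrays. Its uninduced arrays gave 4.01, 2.72 and 2.66, so the groups overlapped here too, and the change was 0.27 ± 0.54, with 0.15 in the run of 2 and 0.33 in the run of 4. SWEET13 (AT5G50800) differed by 0.18 ± 0.45, with 0.22 in the run of 2 and 0.16 in the run of 4. SWEET9 (AT2G39060), the sucrose transporter of nectaries, differed by 0.078 ± 0.45, and its sign was not the same in the runs, at -0.0044 in the run of 2 and 0.12 in the run of 4. SWEET10 and SWEET13 are direct neighbours on the chromosome in the gene table. The sequences of SWEET13 and SWEET14 are closely alike, and how far their probes can tell the transcripts apart was not tested.

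A further clade III gene entered no count above, because its symbol in the table is SAG29 (AT5G13170), a senescence-associated gene also known as SWEET15. Its levels were 8.51, 8.46 and 8.36 on the induced arrays, against 8.90, 8.71 and 8.81 on the uninduced arrays. Here the induced arrays were all below the uninduced ones, where 7.81% of all probes were apart and lower. The changes of the other 5 clade III genes over all arrays were above 0. Those of SWEET9, SWEET11, SWEET13 and SWEET14 turned sign with an array left out, which unbalances the runs. Within the runs, SWEET10, SWEET11, SWEET13 and SWEET14 were above 0 in both, and SWEET9 only in the run of 4. The difference from SAG29 was not tested. The change of SAG29 was -0.37 ± 0.13 (SE), with -0.39 in the run of 2 and -0.36 in the run of 4. It did not pass the test, with an adjusted p of 0.765, or 0.183 in the block fit (limma).

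In clades I and II, which mainly carry hexoses, 3 measured genes had a change above 0 and 4 below 0. SWEET2 (AT3G14770), a glucose transporter of the vacuolar membrane, had levels of 6.35, 5.65 and 5.77 on the induced arrays, against 5.71, 5.45 and 5.90 on the uninduced arrays. The groups overlapped, and its change of 0.24 ± 0.24 (SE) was uneven between the runs, at 0.64 in the run of 2 and 0.036 in the run of 4. With 1 array per group in the run of 2, whether the change of SWEET2 differs between the runs cannot be settled here. SWEET7 (AT4G10850), a hexose transporter, had levels of 4.91, 3.92 and 4.05 on the induced arrays, against 5.13, 4.18 and 4.19 on the uninduced arrays. Its change was the lowest of the 14 genes, at -0.21 ± 0.39, with -0.23 in the run of 2 and -0.20 in the run of 4. With the run as a block its standard error was 0.081 and its adjusted p 0.328 (limma).

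SWEET1 (AT1G21460), a glucose transporter of the plasma membrane, had levels of 5.21, 3.74 and 4.14 on the induced arrays, against 5.43, 3.65 and 4.35 on the uninduced arrays. The groups overlapped over most of their range, with a change of -0.11 ± 0.58 (SE), -0.21 in the run of 2 and -0.065 in the run of 4. SWEET3 (AT5G53190) differed by -0.11 ± 0.36, with -0.043 in the run of 2 and -0.14 in the run of 4. SWEET4 (AT3G28007), a hexose transporter, differed by -0.045 ± 0.50, with -0.0098 in the run of 2 and -0.063 in the run of 4. SWEET6 (AT1G66770) differed by 0.13 ± 0.56, nearly all of it from the run of 2 at 0.39, against 0.0083 in the run of 4. SWEET8 (AT5G40260), which is needed for pollen wall formation, differed by 0.025 ± 0.24, at 0.30 in the run of 2 and -0.11 in the run of 4. None of these genes passed the test in either fit. For the 12 genes outside clade IV, adjusted p with the run as a block was 0.328 or higher (limma). The intervals of the fit without a block remained wide, from -1.47 to 2.19 for SWEET11 and from -0.36 to 0.83 for SWEET2, and those of SWEET6, SWEET11 and SWEET14 included the 1.44 measured for SWEET16. In the block fit no interval of the 12 genes reached that value, with a highest upper limit of 0.93 for SWEET10, while the interval of SWEET16 was 1.15 to 1.72.

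Probe signal was low for most of the family. SWEET16 and SWEET17 were above the array median on all 6 arrays and 11 genes were below it on all 6, with SWEET2 between. In addition 9 genes were below the lower quartile of an array at least once, and SWEET4 and SWEET14 were there on every array. SWEET14 lay between percentiles 6.74 and 17.1. Probes differ in how well they bind, so these positions do not order the transcripts by amount. They show which probes were dim. Background was not estimated here, so a change of a dim probe may be understated. SWEET16 stood at percentiles 75.9 to 79.2 on the induced arrays, against 59.9 to 62.3 on the uninduced arrays, so its groups were apart on this scale too. Percentiles remove a shift shared by all probes of an array, but not every run difference, and SWEET11 stood at 44.5 and 41.2 in the run of 2, against 17.1 to 32.9 in the run of 4. SWEET17 stood at 61.8 to 65.1 on the induced arrays, against 57.1 to 59.1 on the uninduced arrays, and here its groups no longer overlapped. SWEET7 was apart in the other direction, at 26.2 to 28.5 on the induced arrays, against 30.5 to 33.5 on the uninduced arrays. In all, 2 of the 14 genes were apart and higher and 1 apart and lower on the percentile scale, where 7.95% of all probes were apart and higher and 8.78% apart and lower.

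**Figure D3:**
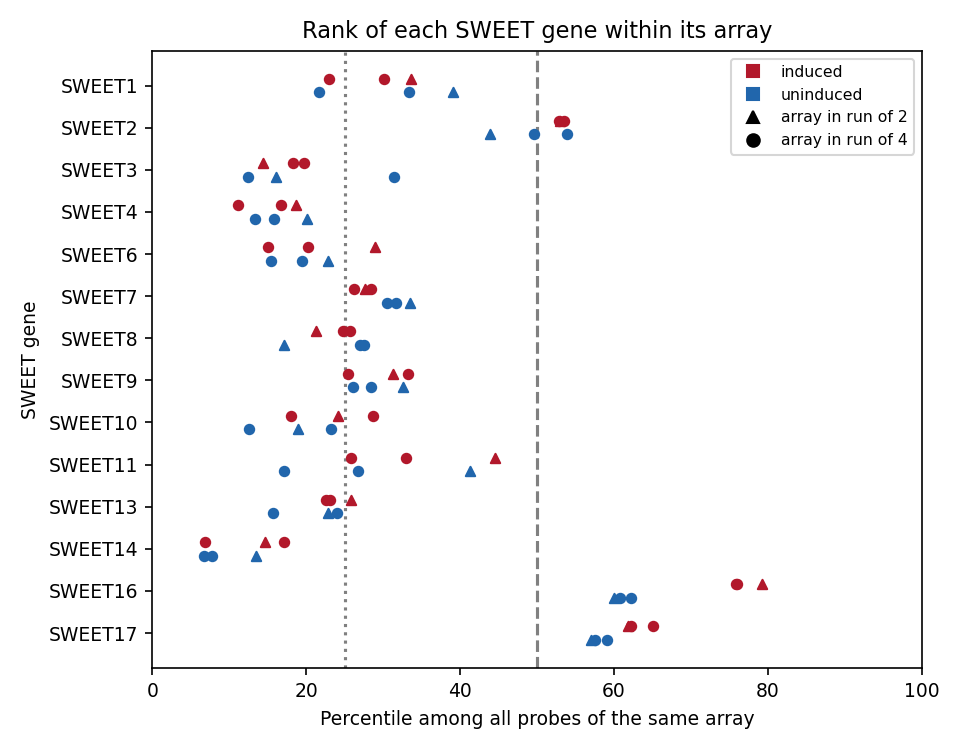
Percentile of each SWEET probe among the 38408 probes of the same array (horizontal axis), for induced (red, upper) and uninduced (blue, lower) arrays. Triangles are arrays of the run of 2 and circles arrays of the run of 4, with lines at the lower quartile (dotted) and the median (dashed). SWEET16 lies at 75.9 to 79.2 on induced arrays and at 59.9 to 62.3 on uninduced arrays, and 11 genes lie below the median on every array.

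Other genes of sugar transport and use were measured in small number. Without the run as a block 0 of them passed the test, where 0.534% of all probes were higher and 0% lower. With the block 0 of them passed too, where 0.992% of all probes were higher and 0.0338% lower. Of the 33 names listed for other sugar carriers 6 genes were measured, with 2 changes above 0, 4 below 0 and a median of -0.081 on the log2 scale. SAG29 is 1 of them. The tonoplast monosaccharide transporters, which load the vacuole with hexoses in exchange for protons, gave 0.19 ± 0.16 for TMT1, -0.14 ± 0.26 for TMT2 and -0.017 ± 0.17 for TMT3 (SE). TMT1 had levels of 10.06, 9.77 and 9.64 on the induced arrays, against 9.61, 9.70 and 9.58 on the uninduced arrays, and the groups overlapped. The related carriers SFP1 and SFP2 gave -0.16 ± 0.17 and 0.18 ± 0.39. Of the 39 names for sucrose and hexose metabolism only cwINV6, listed as a fructan exohydrolase, was measured, and it differed by -0.11 ± 0.12. Its induced arrays were all below its uninduced arrays, as were those of SAG29, where 7.81% of all probes were apart and lower.

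Of the 50 names listed for proton pumps, which supply the gradient used by proton-coupled sugar carriers, 4 genes were measured. The symbols listed for plasma membrane pumps (AHA) gave no measured gene. VHA-A1, VHA-A2 and VHA-A3 are sister subunits, so the 4 genes do not stand for proton pumps in general. All 4 had changes above 0, where 45.8% of all probes did, with a median of 0.17 on the log2 scale. VHA-A1, a membrane subunit of the vacuolar-type proton ATPase, had levels of 9.92, 9.66 and 9.69 on the induced arrays, against 9.40, 9.33 and 9.28 on the uninduced arrays. Its groups did not overlap, as was also so for VHA-A2 and VHA-A3, where 5.7% of all probes were apart and higher. The change of VHA-A1 was 0.42 ± 0.13 (SE), with an adjusted p of 0.714, or 0.154 in the block fit (limma). The sister subunits VHA-A2 and VHA-A3 gave 0.19 ± 0.13 and 0.15 ± 0.12. The remaining pump gene, AT3G58730, gave 0.052 ± 0.12, and its groups overlapped. None of the 14 names for aquaporins under older symbols had a paired probe.

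**Figure D4:**
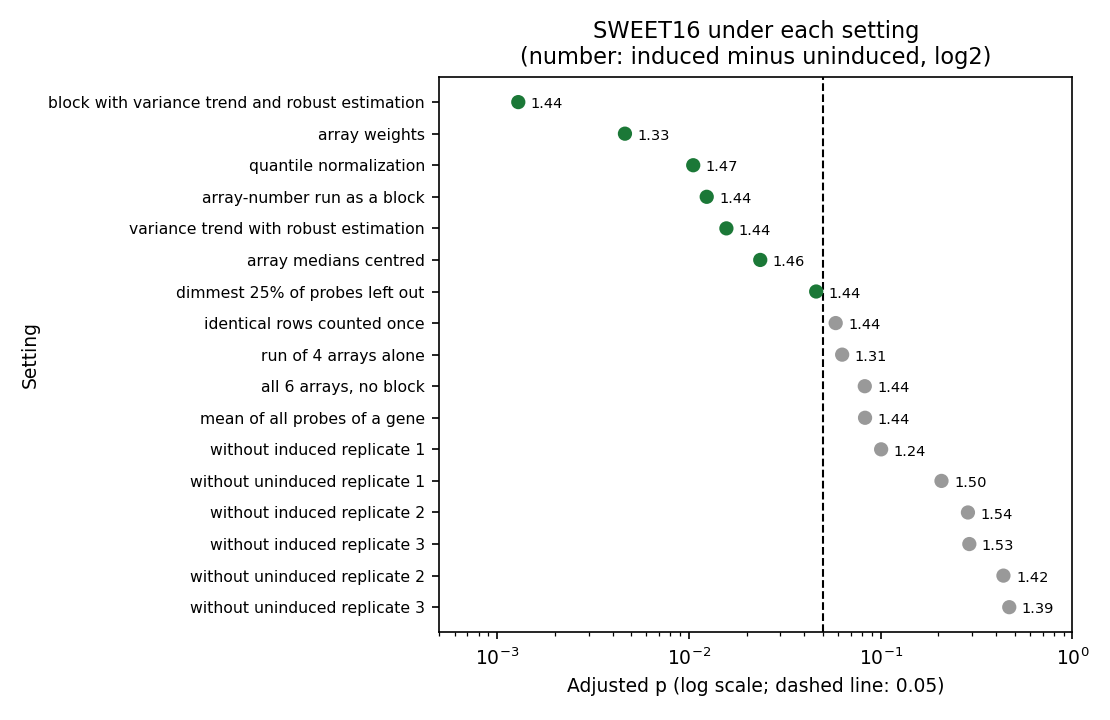
Adjusted p of SWEET16 (horizontal axis, log scale) under each processing setting, with the change in log2 units printed beside each point. Green points are under the threshold of 0.05 (dashed line) and grey points are not. The change lies between 1.24 and 1.54, and some settings could not alter it. The adjusted p ranges from 0.00129 to 0.468.

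The call of SWEET16 depended on the setting. Across 16 alternatives the change ranged from 1.24 to 1.54 on the log2 scale. Settings that altered only the error estimate, the block or the other probes could not move it from 1.44. Of the 16 alternatives, 7 gave an adjusted p under 0.05. Beside each, the share of all probes called higher in the same fit is given. Quantile normalization gave an adjusted p of 0.0105 (0.828% of probes), centred array medians 0.0236 (0.62%), and leaving out the dimmest 25% of probes 0.0461 (0.913%). A variance trend with robust estimation gave 0.0157 (0.914%), and 0.00129 (2.09%) once the block was added to it, while array weights gave 0.00464 (1.19%). Raising the threshold to an adjusted p under 0.1 in the fit without a block also admitted SWEET16 (0.687%). In the run of 4 arrays alone the adjusted p was 0.063 (0.365%). Averaging the probes of a gene (0.526%) or counting identical rows once (0.712%) did not bring it under 0.05. With any of the 6 arrays left out it was 0.101 to 0.468. The plot of adjusted p by setting shows these values in order.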

How the data were processed

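Per the submitters' processing notes, the authors summarised the arrays with Affymetrix Expression Console, version 1.3. Each probe has a single deposited value per array, taken here to be log2 because values span 0.30 to 14.05. Probe summarisation, background correction, normalization, log base and build: not given in the sources used here. Coordinates and sequences are not printed, though gene order in the gene table served to find chromosome neighbours. The annotation paired 16722 of the 38408 probes with 1 gene and 759 with several, and 20927 had no gene. Gene identifiers led to current symbols in the RefSeq table of TAIR10.1. Each SWEET gene had 1 probe. Groups were compared over all probes with limma 3.58.1 (R 4.3.3; lmFit and eBayes without trend), and an adjusted p under 0.05 (Benjamini-Hochberg) was the threshold. Replicate numbers follow deposition order and pair nothing. The number of arrays limits the precision.

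The members and lists were chosen with earlier results of these data known. The rule for named genes took members that passed, the 6 largest rises and falls, the brightest member of a family and up to 3 genes per list. The remaining members (SWEET6, SWEET8, SWEET9 and SWEET13) and list genes are given for completeness. The planned promoter and protein search was not run.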

Additional observations from a re-analysis of the deposited data

How the results depend on the processing

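Without a block 0 SWEET genes were called. The count of genes higher was 1, SWEET16, with a variance trend and robust estimation, quantile normalization, centred array medians, the dimmest 25% of probes left out, array weights, the run as a block, the block with trend and robust estimation (added after the data were seen), or an adjusted p under 0.1. It was 0 in the run of 4 alone, with probes averaged per gene, with identical rows counted once (also added later), and with any array left out. No gene was lower under any setting, where 0% to 1.1% of all probes were lower. None of the other 13 passed in 201 gene-by-setting results (lowest adjusted p 0.128, limma), where 0.146% to 2.09% of all probes were higher. These results refit the same 13 genes on overlapping sets of arrays. With an array left out, the family median ranged from -0.21 to 0.48, and signs turned for 10 genes that never passed. Their ranges were -0.54 to 0.36 (SWEET1), -0.46 to 0.072 (SWEET3), -0.46 to 0.35 (SWEET4), -0.38 to 0.52 (SWEET6), -0.51 to 0.11 (SWEET7), -0.21 to 0.15 (SWEET8), -0.25 to 0.45 (SWEET9), -0.21 to 0.98 (SWEET11), -0.18 to 0.52 (SWEET13) and -0.11 to 0.71 (SWEET14). SWEET10 and SWEET2 kept their sign but ranged over 0.0044 to 0.64 and 0.024 to 0.37, SWEET17 over 0.32 to 0.55. Leaving out 1 array unbalances the runs and moves the median of all probes to between -0.19 and 0.11. SWEET8 also turned to -0.10 with array weights and to -0.11 in the run of 4. The dim-probe filter left 7 of the 14 genes. The planned aquaporin median and the inclusion of other proteins with matching symbols gave no value, as no such gene was measured. No pairing by replicate number was possible because the labels carry none, and the array-number run served as the block.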

Other observations

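Genes next to the SWEET genes on the chromosomes, up to 2 protein-coding genes on each side, were looked up in the gene table after the data were seen. Besides SWEET genes, 32 such neighbours were measured, with changes of -0.44 to 0.47 on the log2 scale. Of these neighbours 0 passed the test without the run as a block (limma), where 0.534% of all probes were higher and 0% lower. With the block 0 passed too, where 0.992% of all probes were higher and 0.0338% lower. At an unadjusted p under 0.05 there were 0 without the block, where 3% of all probes were higher and 2.74% lower. With the block 4 were higher and 1 lower, where 7.11% of all probes were higher and 8.49% lower. The measured neighbours of SWEET16 were AT3G16670 (-0.15 ± 0.46, SE), AT3G16680 (0.11 ± 0.38) and AT3G16700 (0.028 ± 0.22). The neighbours of SWEET17 were DI21, a drought-induced gene, at -0.13 ± 0.23, AT4G15930 at -0.24 ± 0.13 and AT4G15940 at 0.062 ± 0.29. AMY1, an alpha-amylase gene next to SWEET14, gave 0.44 ± 0.42, with opposite signs in the runs, at -0.17 in the run of 2 and 0.75 in the run of 4. The largest rise among the 32 neighbours was that of AT4G10860, next to SWEET7, at 0.47 ± 0.63.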
